A study of Mus musculus with 2 samples.

Results

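Genes of the splicing machinery were examined in a list of genomic regions enriched for the transcription factor E2F1 in mouse hepatocytes. The genes were chosen by presence in that list together with a symbol that starts with Snrp, Lsm and a digit, Prpf, Sf3a, Sf3b, Srsf, Hnrnp or Ppil. These 7 groups of symbols took 38 of the 5594 genes and 43 of the 5667 peaks of the list. The cells were primary hepatocytes of C57Bl6J mice that had received an adenovirus carrying E2F1 (Ad-E2F1) and were collected 36 h later, so that both records of the study, 1 chromatin immunoprecipitation (ChIP) with an anti-E2F1 antibody and 1 input without antibody, come from cells with added E2F1. The series text speaks of 2 replicates, each combining 2 ChIPs, but 1 peak list was analysed here. It is not split by replicate, and no value below has a replicate error. Age and sex of the mice are not in the labels, and hepatocytes without the vector were not analysed here. A peak list holds no expression, so the labelled cell type could not be checked against markers.

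Introns are removed from new transcripts by the spliceosome, which is built on each intron from small nuclear ribonucleoproteins (snRNPs). Each snRNP consists of a small nuclear RNA and a ring of Sm or Lsm proteins with further proteins around it. The U1 and U2 snRNPs recognise the splice site and the branch site, and the U4/U6.U5 tri-snRNP then joins and is rearranged into the active enzyme with the help of the Prp19 complex. SR proteins and hnRNP proteins bind the transcript itself and influence which sites are used. E2F1 is known for binding promoters of genes needed for S phase. The symbols cover these classes with a few exceptions: Lsm1 belongs to a ring that acts in decay of cytoplasmic messenger RNA, and Lsm12 and Lsm14b lie outside both Lsm rings.

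A peak is described below by the values that the authors' peak caller gave. Fold sets the ChIP tags over the background that input predicts, tags are the reads counted in the called region, and height is that of the pileup. The false discovery rate is a percent. A promoter peak is one whose summit lies at most 1000 bp from a transcription start site (TSS). The labels and the file state no read totals, and the depth of the libraries is therefore unknown. The caller's serial numbers run to 18908 and 13241 of them are not in the list, so a gene without a listed peak was not shown to be unbound. All folds, tags and rates come from the contrast by which the genes were chosen, and are given as a description with no test.

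The 5 promoters printed here are those of the 4 members with the highest fold, Ppil1, Srsf1, Hnrnpab and Hnrnpul1, and of Srsf10, which held the most copies of an E2F motif among the members. They are the 250 bases before the RefSeq start on assembly GRCm38.p6, 5′ to 3′ on the gene's strand, while the peaks are on mm9. Capitals mark matches on either strand to the E2F consensus, searched as TTTCCCGC, TTTGGCGC, TTTCGCGC or TTTGCCGC, or to a shorter core, GCGGGAA. The core overlaps the first of these words, since its complement TTCCCGC is part of it.
Ppil1, chr17:29263972-29264221, minus strand: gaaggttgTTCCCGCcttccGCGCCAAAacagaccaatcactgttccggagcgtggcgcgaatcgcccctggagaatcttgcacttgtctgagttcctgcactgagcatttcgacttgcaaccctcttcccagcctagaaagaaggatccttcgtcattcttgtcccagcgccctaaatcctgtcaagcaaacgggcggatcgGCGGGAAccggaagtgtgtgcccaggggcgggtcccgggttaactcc
Srsf1, chr11:88047123-88047372, plus strand: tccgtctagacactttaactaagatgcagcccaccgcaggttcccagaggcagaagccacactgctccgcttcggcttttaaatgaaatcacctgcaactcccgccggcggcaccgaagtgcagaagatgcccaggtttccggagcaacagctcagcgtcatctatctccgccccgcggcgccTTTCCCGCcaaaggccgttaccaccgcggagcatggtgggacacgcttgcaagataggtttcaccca
Hnrnpab, chr11:51606882-51607131, minus strand: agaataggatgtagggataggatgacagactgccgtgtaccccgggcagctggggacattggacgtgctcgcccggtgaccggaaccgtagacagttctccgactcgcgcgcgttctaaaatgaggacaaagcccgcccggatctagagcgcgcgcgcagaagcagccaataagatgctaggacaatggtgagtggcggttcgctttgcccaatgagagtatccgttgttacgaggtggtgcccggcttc
Hnrnpul1, chr7:25754760-25755009, minus strand: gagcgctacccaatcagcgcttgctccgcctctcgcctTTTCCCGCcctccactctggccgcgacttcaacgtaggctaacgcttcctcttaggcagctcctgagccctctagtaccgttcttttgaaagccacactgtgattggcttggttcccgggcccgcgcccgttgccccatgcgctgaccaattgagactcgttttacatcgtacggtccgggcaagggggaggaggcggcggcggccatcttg
Srsf10, chr4:135855821-135856070, plus strand: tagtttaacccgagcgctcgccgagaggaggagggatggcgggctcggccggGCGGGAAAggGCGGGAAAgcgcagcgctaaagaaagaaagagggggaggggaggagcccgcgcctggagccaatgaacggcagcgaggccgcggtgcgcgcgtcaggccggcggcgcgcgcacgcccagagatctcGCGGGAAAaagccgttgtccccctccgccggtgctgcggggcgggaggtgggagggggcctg

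In these sequences the matches lay at different places. The Srsf1 promoter held 1 consensus, TTTCCCGC, beginning 67 bases before the start. The same word stood in the Hnrnpul1 promoter, 212 bases before the start. Ppil1 held the complement of TTTGGCGC 230 bases before the start and a core on each strand, at 242 and 47 bases. Srsf10 held GCGGGAAA, the complement of TTTCCCGC, 3 times, at 198, 188 and 62 bases. Hnrnpab, whose peak had a fold of 25.9, held neither motif in this window.

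Of the 38 genes, 25 had a promoter peak (65.8%) and 13 had peaks only elsewhere. Of all protein-coding genes named in the list, 53.0% had one. Of the 43 peaks, 26 lay at the promoter of the member itself. With 1 more at the promoter of a neighbour, 27 peaks (62.8%) were at a promoter of any gene, beside 46.1% of all peaks in the list. The 17 peaks away from the member's promoter lay inside genes in 6 cases, downstream in 7 and upstream in 4. The median fold of the 25 promoter genes, each by its strongest promoter peak, was 8.2 (quartiles 5.63 and 9.91), beside 6.525 (4.89 and 9.357) for all 2866 protein-coding promoter genes of the list. Their median tag count was 223, beside 172, and their median false discovery rate 0.12%, beside 0.65%. Of the 25 genes, 15 lay above the median of all promoter genes. The 95% interval of the members' median fold, 6.19 to 9.42, holds the 6.525 of all promoter genes. A difference between these medians is therefore not shown. The 17 peaks away from the member's promoter had folds from 2.6 to 6.32 with a median of 3.74. The median was 4.07 for all peaks of the list at no gene's promoter, a set without the 1 peak at a neighbour's promoter. No peak of a member away from its promoter reached the median fold of all promoter genes.

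**Figure D1:**
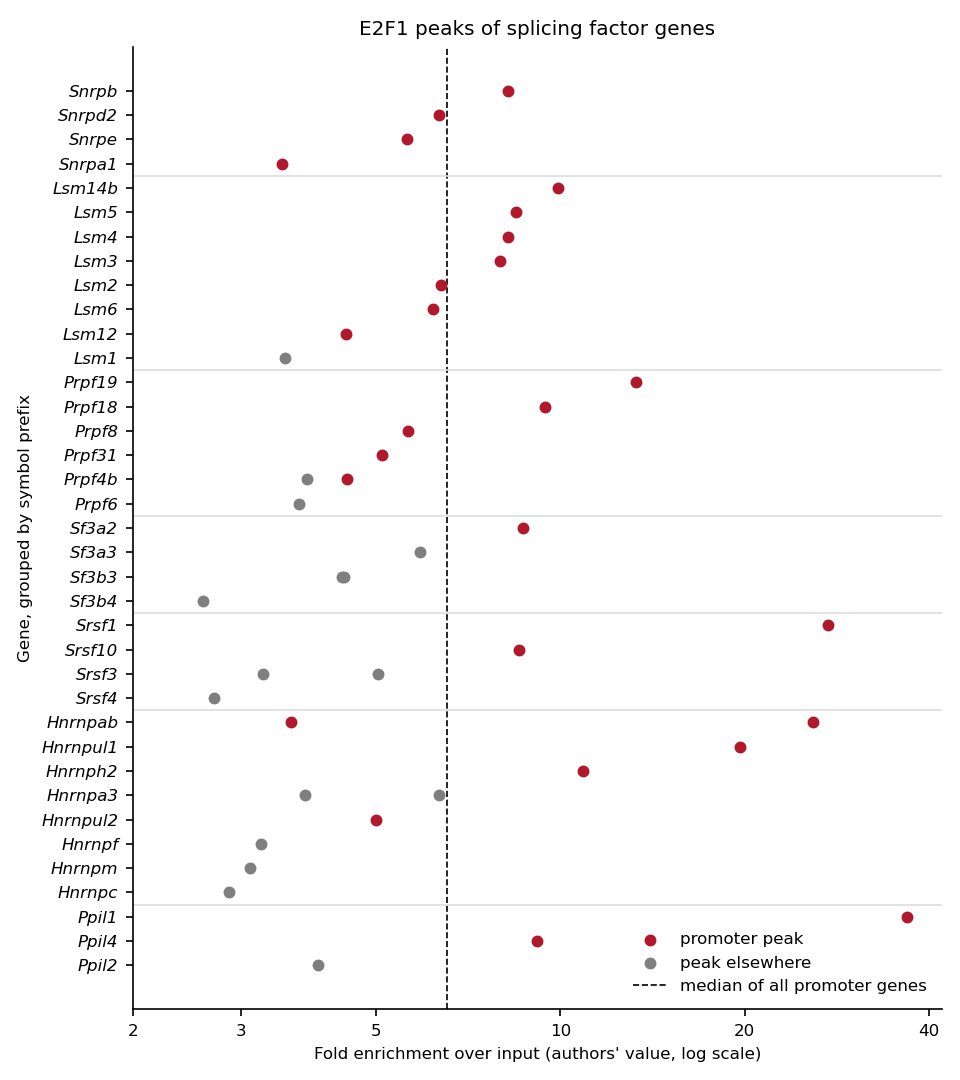
Fold enrichment over input (log axis) of 42 peaks of 37 genes, grouped by symbol prefix, with promoter peaks in red, peaks elsewhere in grey and the median of all promoter genes (6.525) as a dashed line. Ppil1 (36.81), Srsf1 (27.36), Hnrnpab (25.9) and Hnrnpul1 (19.68) stand apart from the other members, and all grey points lie left of the line.

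A fold of 10 or more was reached by 6 of the 25 promoter genes (24.0%), beside 22.1% of all promoter genes, which is near that background. Ppil1, a peptidyl-prolyl isomerase of the activated spliceosome, had the highest fold of the members, 36.81, with 422 tags and a height of 307. Its peak ranked 9 among all peaks of the list by fold and lay on chromosome 17 from 29400947 to 29401247 (mm9), with the TSS inside this window of 301 bp. Srsf1 codes for an SR protein that binds exonic enhancers and promotes use of nearby splice sites. Its peak had a fold of 27.36 and rank 43, on chromosome 11 from 87860669 to 87860969, and it held the most tags (671) and the greatest height (394) of the members. By tags and height Srsf1 thus stood above Ppil1, and by fold below it.

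Hnrnpab, which codes for an RNA-binding protein of the hnRNP A/B type, had a fold of 25.9 with 391 tags and a height of 285, on chromosome 11 from 51420342 to 51420642. A second, weaker peak of Hnrnpab lay inside the gene with its summit 847 bp past the TSS, and had a fold of 3.63 with 252 tags. Hnrnpul1, a relative of hnRNP U that also acts at DNA breaks, had a fold of 19.68 with 585 tags and a height of 245, on chromosome 7 from 26539806 to 26540106. These 4 peaks, at Ppil1, Srsf1, Hnrnpab and Hnrnpul1, were the only ones of the members with a false discovery rate of 0. Prpf19, the ubiquitin ligase at the core of the Prp19 complex, followed with a fold of 13.27, 432 tags and a rate of 0.1%, on chromosome 19 from 10969417 to 10969717. Hnrnph2, an hnRNP that binds runs of G, had a fold of 10.9 and 114 tags at 131135521 to 131135821 on chromosome X. Its window also held the TSS of Gla, the gene of alpha-galactosidase A. With 114 tags, Hnrnph2 had the fewest among the 25 promoter genes, although its fold was the sixth highest.

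The other 19 promoter genes had folds from 3.51 to 9.91. They were spread over all prefixes and are described by class below.

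Of the 12 protein-coding Snrp genes, which code for Sm proteins and for proteins particular to the U1 or U2 snRNP, 4 had a listed peak, in each case at the promoter. Snrpb, Snrpd2 and Snrpe code for subunits of the Sm ring that encircles the small nuclear RNAs. Snrpb had a fold of 8.2 and 158 tags at 130004919 to 130005219 on chromosome 2. Snrpd2 had a fold of 6.32 with 175 tags, with the summit 351 bp upstream. Snrpe had a fold of 5.62 with 278 tags, with the summit 229 bp downstream. Of the 7 ring subunits these were 3, and Snrpd1, Snrpd3, Snrpf and Snrpg had no listed peak. Snrpa1, which codes for a protein of the U2 snRNP, had the weakest promoter peak of all members, with a fold of 3.51, 190 tags and a false discovery rate of 6.87%. Snrpa and Snrpc, of the U1 snRNP, Snrpb2, of the U2 snRNP, and Snrpn had no listed peak.

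The Lsm class had the most promoter peaks of the 7 classes, at 7 of 13 genes. Lsm2 to Lsm8 form the ring that binds the end of U6 RNA, and 5 of these 7 genes had a promoter peak. Their folds lay close together. Lsm5 had 8.46 with 216 tags, Lsm4 8.2 with 239, Lsm3 7.97 with 116, Lsm2 6.37 with 335 and Lsm6 6.19 with 334. In each of the 5 the window held the TSS, and the order by tags differed from that by fold. Lsm7 and Lsm8 had no listed peak. For Lsm1, which takes the place of Lsm8 in the cytoplasmic ring, the only peak was 13746 bp upstream (fold 3.54), inside Bag4, to which it was closer. Outside the rings, Lsm14b, a relative of the P-body protein Lsm14a, had the highest fold of the class, 9.91 with 163 tags on chromosome 2 from 179759461 to 179759761. Lsm12 had a fold of 4.46 at a false discovery rate of 6.26%. Lsm10 and Lsm11, parts of the U7 snRNP that processes histone messages, and Lsm14a had no listed peak.

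**Figure D2:**
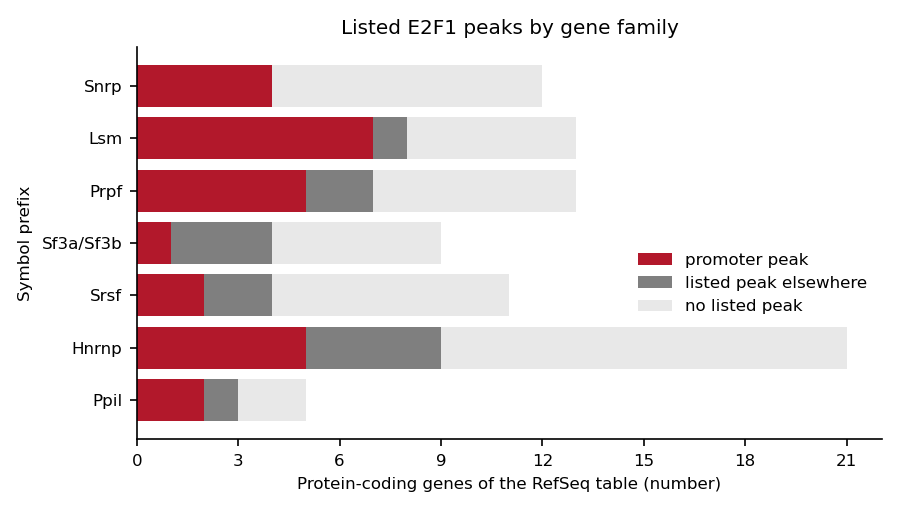
Number of protein-coding genes in the RefSeq table for each symbol prefix, divided into genes with a promoter peak (red), with a listed peak elsewhere (dark grey) and without a listed peak (light grey). The Lsm class has 7 of 13 genes in red and the Sf3a and Sf3b class 1 of 9.

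Among the Prpf genes, which code for factors of the tri-snRNP and of the catalytic steps, 5 of 13 had a promoter peak. Prpf18, a factor of the second catalytic step, had a fold of 9.42 and 172 tags at 4573050 to 4573350 on chromosome 2. Prpf8, the large scaffold protein at the centre of the spliceosome, had a fold of 5.63 with 223 tags and its summit 211 bp upstream. Prpf31, a U4 snRNP protein mutated in retinitis pigmentosa, had a fold of 5.11 with 137 tags. The kinase gene Prpf4b had a peak with the summit 845 bp upstream (fold 4.47, 234 tags) and another inside the gene 23583 bp from the TSS (fold 3.85, 156 tags). Prpf6, which bridges the parts of the tri-snRNP, had a peak only inside the gene, 13430 bp from the TSS, with a fold of 3.74 and 95 tags. Samd10 is the closer gene there, as 1700026J04Rik is at the second Prpf4b peak. The Prpf19 peak was thus the strongest of the class by fold and by tags. Prpf3, Prpf4, Prpf38a, Prpf38b, Prpf39 and Prpf40b had no listed peak.

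The genes of SF3a and SF3b, which hold U2 at the branch site, had a promoter peak at 1 of 9 (11.1%), near the 13.1% of all protein-coding genes. That peak was the one of Sf3a2, on chromosome 10 from 80261285 to 80261585, with a fold of 8.68 and 214 tags. Its summit lay 492 bp inside Sf3a2, and the same window held the TSS of Plekhj1, which is closer. Sf3a3 had a peak past its end, inside Inpp5b, the closer gene, with a fold of 5.9 and 88 tags. Sf3b3 had a pair of peaks 9394 and 13987 bp upstream, both inside Cog4, with folds of 4.39 and 4.42. Sf3b4 had the peak of lowest fold of all members, 2.6, with 110 tags and a false discovery rate of 7.07%. It lay past the gene's end, and its score of 55.52 was close to the lowest in the list, 50. Sf3a1, Sf3b1, Sf3b2, Sf3b5 and Sf3b6 had no listed peak, so that none of the SF3b genes had one at the promoter.

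Of the 11 Srsf genes, which code for SR proteins, 2 had a promoter peak. Beside Srsf1 this was Srsf10, an SR protein that represses splicing when dephosphorylated, with a fold of 8.54, 168 tags and a height of 90 on chromosome 4 from 135411582 to 135411882. The Srsf1 peak thus held more tags and height than that of Srsf10, while the motif copies in the printed sequences were 1 and 3. Srsf3 had a pair of peaks downstream of the gene, with folds of 5.04 (188 tags) and 3.26 (244 tags). Srsf4 had 1 peak inside the gene, 25393 bp from the TSS, with a fold of 2.71. Srsf2, Srsf5, Srsf6, Srsf7, Srsf9, Srsf11 and Srsf12 had no listed peak.

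The hnRNP genes had both strong and weak peaks. Besides Hnrnpab, Hnrnpul1 and Hnrnph2, a promoter peak was listed for Hnrnpul2, a relative of Hnrnpul1, with a fold of 5.0, 327 tags and the summit 412 bp upstream. Hnrnpa3 had the strongest peak of a member away from its promoter, 16174 bp upstream, with a fold of 6.32, 406 tags and a height of 92. A second peak of Hnrnpa3 past its end had a fold of 3.83. Hnrnpf, which binds runs of G as Hnrnph2 does, had a peak downstream with a fold of 3.24, and Hnrnpc, which binds runs of U, one inside the gene at 23896 bp with a fold of 2.87. Hnrnpm had a peak 1208 bp past the TSS with a fold of 3.11, at the end of the neighbouring gene March2, which is closer. Hnrnpm was the member just outside the promoter limit, while the Prpf4b peak at 845 bp and the second Hnrnpab peak at 847 bp were just inside. Of the 21 Hnrnp genes in the reference table, 12 had no listed peak. They were Hnrnpa0, Hnrnpa1, Hnrnpa1l2-ps2, Hnrnpa2b1, Hnrnpd, Hnrnpdl, Hnrnph1, Hnrnph3, Hnrnpk, Hnrnpl, Hnrnpr and Hnrnpu. Many hnRNP and Sm genes have near-identical processed copies in the genome, and the sources used here do not say how reads with several matches were treated.

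Of the 5 Ppil genes, Ppil1 and Ppil4 had promoter peaks. Ppil4, an isomerase with an RNA-binding domain, had a fold of 9.17 and 295 tags at 7512456 to 7512756 on chromosome 10. Ppil2 was named for a peak downstream of the gene, with a fold of 4.02 and 84 tags, the fewest of any member. That peak was a promoter peak of Ypel1. Ppil3 and Ppil6 had no listed peak.

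**Figure D3:**
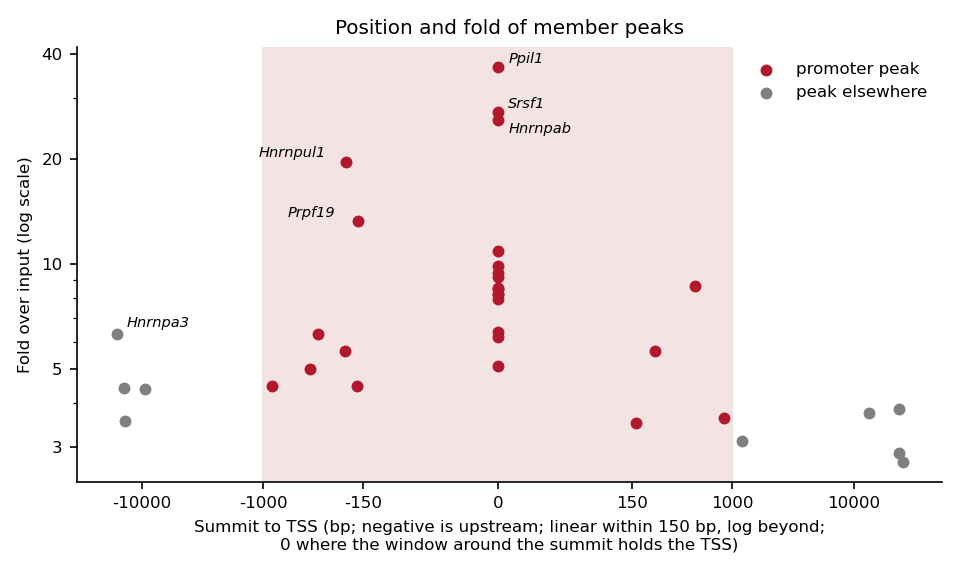
Fold (log axis) of the member peaks against the distance from summit to TSS in bp (linear within 150 bp and logarithmic beyond), with promoter peaks in red on the shaded range of 1000 bp and peaks elsewhere in grey. Peaks past a gene's end and the gene not reported are left out. The 3 highest folds, at Ppil1, Srsf1 and Hnrnpab, are at windows that hold the TSS, and no grey point exceeds 6.32 (Hnrnpa3).

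In 15 of the 25 promoter genes the window around the summit held the TSS. In 7 the summit lay upstream and in 3 downstream. These positions were not counted over all promoter genes, so they are not shown to be particular to the members. A shared promoter, where the same peak also lies at the promoter of another gene, was found for 7 of the 25 (28.0%), near the 21.7% of all promoter genes. The partners were Gla at Hnrnph2, Xpc, a sensor of DNA damage, at Lsm3, Tfpt at Prpf31, Qpctl at Snrpd2, Ttc9c at Hnrnpul2, Plekhj1 at Sf3a2 and 6530403G13Rik at Ppil4. At Snrpd2, Hnrnpul2 and Sf3a2 the partner was the closer gene. The folds at these 7 promoters ran from 5.0 at Hnrnpul2 to 10.9 at Hnrnph2, so that the 5 strongest members were all at promoters of their own.

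The share of each family could be set against genes that the list does not name. The prefixes matched 84 protein-coding genes in the RefSeq table of assembly GRCm38.p6. Of these, 26 had a promoter peak (31.0%, exact binomial 95% interval 21.3% to 42.0%), beside 13.1% of all 21900 protein-coding genes. The added gene is Hnrnpll, which the file lists by an older symbol. Any listed peak was found at 39 of the 84 (46.4%), beside 24.7% of all. A promoter peak with a fold of 10 or more was found at 7.14% of the 84, beside 2.89% of all. By family the share with a promoter peak was 53.8% for Lsm (7 of 13 genes), 38.5% for Prpf, 33.3% for Snrp, 23.8% for Hnrnp, 18.2% for Srsf and 11.1% for Sf3a and Sf3b, while Ppil had 2 of 5. The intervals of these shares overlap, from 25.1% to 80.8% for Lsm and from 0.281% to 48.2% for Sf3a and Sf3b, and the families were not tested against each other. The interval of Prpf starts at 13.9%, close to the 13.1% of all protein-coding genes, and that of Lsm at 25.1%. Those of the other 5 families hold 13.1%. The intervals are not adjusted for looking at 7 families, which were chosen with earlier results of these data known. They are therefore no test of a family against 13.1%, and no share was tested against it. With only the 1416 peaks of highest fold, 15 members had a promoter peak, or 17.9% of the 84 genes beside 5.48% of all genes. Their median fold was then 9.42, below the 10.26 of all promoter genes in that selection, so the order of the medians was turned.

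**Figure D4:**
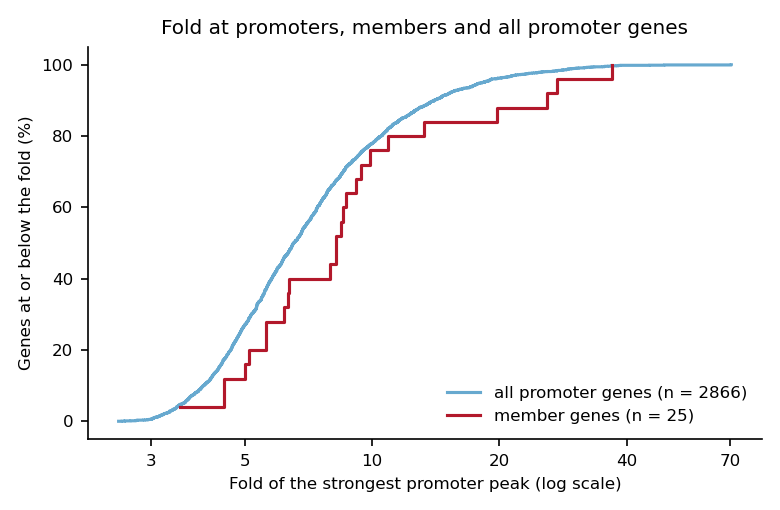
Cumulative share of genes (percent) by the fold of their strongest promoter peak (log axis), for the 25 member genes (red) and all 2866 promoter genes (blue). The median is 8.2 for the members and 6.525 for all promoter genes, and the highest member, Ppil1, is at 36.81 while the list reaches 70.6.

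Promoter sequences do not enter the peak calls as a measured value, and were compared by motif content. Of the 25 promoter genes, 19 had an entry in the RefSeq promoter table, of 300 bases from 250 before the start to 50 after it. Hnrnpul2, Lsm4, Lsm12, Ppil4, Prpf18 and Snrpb had none. The E2F consensus was found in 5 of the 19 (26.3%), with an exact binomial 95% interval from 9.15% to 51.2%. The share was 7.55% in 53 genes of the same prefixes without a promoter peak, 9.47% in all 2355 promoter genes with an entry and 3.29% in all 17492 protein-coding genes with one. The interval of the members holds the share of all promoter genes and not that of all protein-coding genes. The 19 genes were selected by an E2F1 promoter peak, and all promoter genes also had a higher share than all protein-coding genes. The comparison with all protein-coding genes is therefore no independent test of the members. In the last 150 bases before the start and the 50 after it, the consensus was left in 2 of the 19 (10.5%), beside 6.88% of all promoter genes and 2.4% of all protein-coding genes. The 5 genes were Ppil1, Srsf1, Hnrnpul1, Srsf10 and Lsm5, where the complement of TTTGCCGC began 203 bases before the start. Among the 6 members with a fold of 10 or more, 3 held the consensus, as did 2 of 11 with a fold from 5 to 10 and 0 of 2 below 5. Over all promoter genes the share was 19.0%, 8.18% and 3.97% in the same classes of fold.

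The shorter core GCGGGAA was found in 6 of the 19 (31.6%), beside 13.2% of the 53 genes of the same prefixes without a promoter peak, 16.6% of all promoter genes and 6.84% of all protein-coding genes. Beyond genes with the consensus, it stood in the promoters of Lsm3, 14 bases before the start, and of Prpf19, 97 bases before it. Hnrnpf, Prpf6 and Srsf4, which had no promoter peak, also held the core. It lay at 211 bases in one entry of Hnrnpf and at 92 bases in Prpf6. In Srsf4 it lay at 83 and 246 bases in one entry and at 85 and 248 bases in another. A match was thus neither found at each strong peak, as Hnrnpab and Hnrnph2 show, nor limited to genes with a promoter peak. The peak at Hnrnpul1 had its summit 206 bp upstream of the authors' TSS, and its consensus began 212 bases before the RefSeq start. The annotations and builds behind these positions differ, so they cannot be laid over each other to the base.

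Other motifs were searched in the same way, on both strands. CCAAT, the box bound by NF-Y, was in 13 of the 19 (68.4%), beside 45.3% of the 53 genes without a promoter peak, 51.5% of all promoter genes and 42.3% of protein-coding genes. It stood 4 times in Hnrnpul1 and 3 times each in Hnrnpab, Hnrnph2 and Prpf8. CCGGAAGT, a site of ETS factors, was in 4 (21.1%), in Lsm5, Prpf4b, Snrpe and, in 2 copies, Ppil1. Its share in the 53 genes without a promoter peak was close to this, 18.9%, and it was 10.7% in all promoter genes and 5.69% in protein-coding genes. The GC box GGGCGG was in 15 (78.9%, beside 67.9%, 74.1% and 49.2% in the same order). TATAAA was in 1, Hnrnpab (5.26%, beside 13.2%, 7.77% and 14.8%), and GCGCATGC, part of the NRF1 site, in 1, Lsm2 (5.26%, beside 9.43%, 7.69% and 3.94%). With 19 genes the intervals are wide, from 43.4% to 87.4% for CCAAT and from 6.05% to 45.6% for CCGGAAGT. Each of these 2 intervals holds the share of all promoter genes. The median GC content of the promoters was 58.3% for the 19 genes, 61.0% for all promoter genes and 56.3% for all protein-coding genes.

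**Figure D5:**
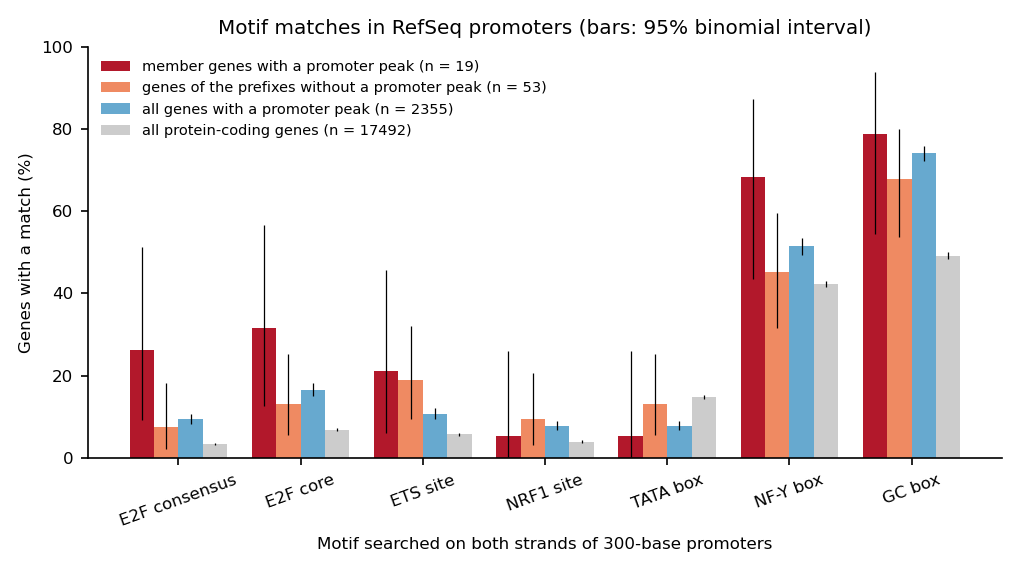
Share of genes (percent, with exact binomial 95% intervals) whose RefSeq promoter of 300 bases holds a match to each motif on either strand, in the 19 members with a promoter peak, 53 genes of the same prefixes without one, all 2355 promoter genes and all 17492 protein-coding genes. The E2F consensus is at 26.3%, 7.55%, 9.47% and 3.29% in that order.

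Further proteins of splicing and RNA processing whose symbols fall outside the prefixes were taken from 7 lists with 150 genes. Of these, 62 had a promoter peak (41.3%, beside 13.1% of all protein-coding genes), 19 had a peak elsewhere and 69 had none. The median fold at the 62 promoters was 7.12, beside 6.525 for all promoter genes. A fold of 10 was reached by 15 of the 62, a share near the 22.1% of all promoter genes.

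The list of U4/U6.U5 tri-snRNP proteins outside the prefixes had the highest share of the 7 lists, 9 of 13 (69.2%). Prpf and Lsm genes are not in it, so this is not the share of the whole complex. Cd2bp2, a U5 protein, had a fold of 23.85, Nhp2l1, which binds U4 RNA, 20.66, and Sart3, which recycles U6, 11.75 at a promoter shared with Iscu. Snrnp27, Snrnp200 and Usp39 had no listed peak. In the list of the Prp19 complex and the catalytic steps, which leaves out Prpf genes, 13 of 25 had a promoter peak (52.0%). The highest folds were 17.42 at Cwc22, 14.76 at Ctnnbl1 and 12.05 at Crnkl1. Cdc40, Dhx8, Dhx16, Dhx35, Gpkow, Isy1, Plrg1, Ppie, Slu7, Syf2 and Wbp11 had no listed peak.

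In the exon junction and export complexes 12 of 24 had a promoter peak. This list held 5 genes with a fold of 10 or more, which was reached by 22.1% of all promoter genes. Thoc3, of the THO complex, had 20.54, Eif4a3, the helicase at the core of the exon junction complex, 14.26, and the export adaptor Alyref 14.22 at a promoter shared with Anapc11. Acin1, Casc3, Ddx39, Ddx39b, Ncbp2, Srrm1, Thoc1, Thoc5 and Thoc6 had no listed peak. Splicing regulators and SR kinases had 10 of 30 (33.3%), with folds of 11.52 at Tra2a, 11.47 at Nono and 8.87 at Sfpq. Celf1, Celf2, Clk1, Clk2, Clk3, Esrp1, Mbnl1, Rbm5, Srpk2 and Tra2b were among those that had no listed peak.

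Of the remaining U1, U2 and minor snRNP proteins 8 of 24 had a promoter peak (33.3%), with folds of 16.35 at Snrnp48, a protein of the minor spliceosome, 9.63 at U2af1, which reads the end of the intron, and 8.22 at Snrnp25. Ddx42, Ddx46, Dhx15, Luc7l, Luc7l3, Phf5a, Puf60, Rbm17, Rnpc3, Sf1, Smndc1, Snrnp70, U2af2, U2surp and Zrsr2 had no listed peak. In the formation of transcript 3′ ends 6 of 18 had one (33.3%). Slbp, the protein that binds the stem-loop of histone messages, had the highest fold of all 7 lists, 25.52 with 521 tags, followed by Wdr33 with 9.54 and Sympk with 7.28. Cpsf1, Cpsf2, Cpsf4, Cpsf7, Cstf1, Cstf3, Nudt21, Pabpn1, Papola and Pcf11 had no listed peak. Assembly of snRNPs had the lowest share, 4 of 16, with no fold of 10 or more. Gemin8 had 7.3, Prmt5, which methylates Sm proteins, 5.66 and Gemin6 5.57. Coil, Ddx20, Gemin2, Gemin4, Gemin5, Gemin7, Smn1, Snupn, Strap and Wdr77 had no listed peak.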

How the data were processed

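Chromatin fixed in 1% formaldehyde for 10 min was sonicated in 14 pulses of 30 s, and ChIP and input DNA were sequenced, per the labels' protocols. The submitters' processing notes list Bowtie2 (2.1.0) and mouse build mm9. The caller was MACS, per the file headers. Its version, its settings and any pooling of replicates are not stated in the sources used here. The deposited columns used are the count of tags per region, the height of the pileup signal, the fold over input (a ratio), a score of 10 times the negative log10 of the p-value, the false discovery rate in percent, and the distance from a window of 301 bp around the summit to the TSS. All are the authors' values of single peaks. A column of unexplained meaning was not used.

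The list pairs peaks with genes in 6887 lines. The distance of the summit was taken as that of the window edge plus 150 bp, and as 0 where the window holds the TSS. On downstream entries the file's distance was not used as one to the TSS. Symbols were matched to RefSeq genes of GRCm38.p6 by symbol or unique synonym (5493 of 5587, 98.3%; all 38 members). A gene with several promoter entries counted as holding a motif if any entry did. Python 3.11.15, pandas 2.3.3 and scipy 1.17.1 were used, and the search for motifs and distances was tested on simulated data. No test between samples or gene groups was run. Binomial intervals (exact, Clopper-Pearson) cover counting error over genes only.

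Members and lists were chosen with earlier results of these data known. The rule for naming genes gave full values for members with a promoter fold of 10 or more, the strongest of each prefix, and those with 2 peaks, a shared promoter or no promoter peak. Of each list it named the 3 genes of highest promoter fold and those without a listed peak. The values of 1 member and of 1 listed gene are not reported here, though both are in the counts. Alternatives varied the promoter distance (500 or 5000 bp, or the authors' class), the peak threshold (the 2833 peaks of highest score or the 1416 of highest fold), the gene counted at a shared peak, the prefixes, the promoter window and the motif.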

Additional observations from a re-analysis of the deposited data

How the results depend on the processing

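Of 31 alternative settings over 5 results, 28 stayed within 1.5 times of the count reported, or within the 95% interval of a share or median. Those that did not all used only the 1416 peaks of highest fold: 15 members in place of 25 and 30 genes of the other lists in place of 62 had a promoter peak, and the share of the 84 prefix genes was 17.9% in place of 31.0%. This setting keeps fewer peaks. Over its alternatives, the number of members with a promoter peak ran from 15 to 31 and their median fold from 8.2 to 9.42. Across the settings of promoters, peaks and closest genes, the median of all promoter genes was below that of the members, except among the 1416 peaks of highest fold, where it was 10.26 beside 9.42. In the main setting the interval of the members' median, 6.19 to 9.42, holds the 6.525 of all promoter genes, so this order is not shown beyond counting error. The share of member promoters with an E2F consensus was 26.3%, and 10.5% in the shorter promoter window. With the shorter core in place of the consensus it was 31.6%, and over all genes of the prefixes the consensus share was 12.5%. The interval over 19 genes, 9.15% to 51.2%, holds these values, but it is wide, so lying within it says little about stability. No paired analysis was possible because 1 peak list, with no columns by replicate, was analysed. Without read totals, replicates or cells lacking the vector, neither the depth behind a fold nor its variation between cultures could be given; 13241 peaks by the caller's numbering are not listed.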

Other observations

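Some relatives of the members carry other symbols. Snrnp25, Snrnp35 and Snrnp48, which code for proteins of the minor spliceosome, all had promoter peaks, with folds of 8.22 (70 tags), 7.52 (362 tags) and 16.35 (352 tags). Snrnp40, of the U5 snRNP, had a fold of 7.39 with 318 tags at a promoter shared with Zcchc17. Snrnp27, Snrnp70 and Snrnp200 had no listed peak. The Snrnp genes are also counted in the lists above. Rbmx2 had a fold of 8.77 with 78 tags and Rbmxrt 8.85 with 272 tags. Hnrnpll, named Hnrpll in the file, had a fold of 4.69 with 148 tags. These genes were listed here after their values had been seen.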
